A study of Mus musculus with 6 samples.

Results

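The 6 genes described here encode phosphatases that oppose PI3K signalling at the membrane or at AKT, and all 6 were found by symbol among the 14992 genes of a table of RNA read counts from mouse bone marrow. They are Inpp5d, Inppl1, Inpp4a, Inpp4b, Phlpp1 and Phlpp2. Whole marrow from Dnmt3a knockout mice had been transplanted into irradiated C57/BL6 recipients, and the labels call the transplanted cells leukemic. One group of 3 libraries came from recipients given an inhibitor of PI3K alpha and beta at 75 mg/kg for 21 days (labelled Bay, libraries 1, 3 and 5), and the other group of 3 from recipients given vehicle over the same time (labelled Veh, libraries 1, 2 and 3). Every library in both groups therefore carries the Dnmt3a deletion in donor cells, and no group with intact Dnmt3a or without a transplant was analysed here. The labels name no sort of the marrow, so recipient cells that outlived irradiation can be part of each sample. They give no age of the mice and do not tell how many mice the libraries come from. Each p-value therefore sets a difference between groups against the spread among libraries, which need not be the spread among mice.

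PI3K makes the membrane lipid phosphatidylinositol trisphosphate (PIP3), which draws AKT to the membrane, where AKT is phosphorylated and switched on. The products of Inpp5d (SHIP1, found mainly in blood cells) and Inppl1 (SHIP2, found in most tissues) remove the phosphate at position 5 of PIP3 and leave a bisphosphate that still binds AKT. The products of Inpp4a and Inpp4b remove the phosphate at position 4 of that bisphosphate, and the PHLPP enzymes, encoded by Phlpp1 and Phlpp2, take a phosphate off AKT itself. In blood, loss of SHIP1 in mice is known to expand myeloid cells.

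Inppl1 stood about 2 times lower with the inhibitor in the point estimate, with no overlap between groups, and the other 5 genes overlapped between groups. Of all tested genes, 30.7% showed no overlap in either direction, and 16.2% none with the inhibitor group below. None of the 6 passed the edgeR quasi-likelihood test at an adjusted p under 0.05, a threshold that 1.83% of all 12806 tested genes passed. Only Inppl1 had an unadjusted p under 0.05, which 21.6% of tested genes had. The sequences upstream of the SHIP genes are shown first because the members of this pair lie furthest apart, on average over libraries, in level and in the group differences described below. Each is the 250 bases before an annotated start in the RefSeq promoter table (GRCm38.p6), 5′ to 3′ on the strand of the gene. Inpp5d is on the plus strand at chr1:87620062-87620311, and Inppl1 on the minus strand at chr7:101838227-101838476. Capitals mark GAGGAAGT, a core of the binding motif of the blood factor PU.1, in Inpp5d, and GC boxes (GGGCGG or its reverse complement CCGCCC) in Inppl1.
Inpp5d: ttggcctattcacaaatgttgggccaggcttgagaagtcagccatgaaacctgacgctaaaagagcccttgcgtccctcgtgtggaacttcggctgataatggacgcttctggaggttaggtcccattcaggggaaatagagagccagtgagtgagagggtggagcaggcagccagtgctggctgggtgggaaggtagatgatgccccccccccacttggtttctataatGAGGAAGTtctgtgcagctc
Inppl1: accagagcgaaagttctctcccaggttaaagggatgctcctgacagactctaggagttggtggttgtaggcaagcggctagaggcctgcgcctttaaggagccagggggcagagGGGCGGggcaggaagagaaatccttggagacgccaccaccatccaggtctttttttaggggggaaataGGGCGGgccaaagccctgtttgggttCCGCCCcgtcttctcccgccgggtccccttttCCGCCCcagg
GAGGAAGT or its reverse complement ACTTCCTC occurred once in the Inpp5d window, and in 2.44% of 32851 upstream windows of mouse genes. It occurred in none of the windows of the other 5 genes. The GC box occurred 4 times in the Inppl1 window shown, 3 times in the window of a second annotated Inppl1 start, and not in that of Inpp5d. Among the other members it occurred 6 times in the Phlpp1 window, 2 times in that of Phlpp2, 1, 4 and 0 times in the 3 windows of Inpp4a, and not in that of Inpp4b. It occurred in 32.7% of all windows. The FOXO core GTAAACA and the E-box CACGTG, each read on both strands, occurred in no window of the 6 genes, against 3.17% and 6.02% of all windows. A match of letters is not a binding site, and no binding was measured. The motifs were chosen with these sequences in view.

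Total counts over genes ran from 28198638 to 35299105 in inhibitor libraries and from 33762431 to 59384880 in vehicle libraries, and each of the 6 genes had at least 211 reads in every library. Levels are given as CPM (counts of a gene relative to the library's total, scaled by TMM). Dnmt3a, the deleted gene, had 15.4 to 20.2 CPM in inhibitor and 17.3 to 24.9 CPM in vehicle libraries. A count over a whole gene does not show whether some of its exons are deleted, so it checks no label. Vehicle 1 stood apart. Its 10 macrophage markers summed to 5937 CPM, against 1655 and 1855 CPM in vehicles 2 and 3, and its 10 neutrophil markers to 39557 CPM, against 64155 and 57825 CPM. Every gene of 9 marker lists for marrow cells was detected in every library, those of blood cells and of stroma alike.

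Inppl1 had 11.6, 9.97 and 12.9 CPM in inhibitors 1, 3 and 5, and 27.6, 17.5 and 23.7 CPM in vehicles 1, 2 and 3. Every inhibitor library lay below every vehicle library. Such a gap without overlap, in either direction, was seen in 30.7% of the genes tested (16.2% with the inhibitor group below), and in 1 of the 6 phosphatase genes. The means were 11.5 ± 1.46 CPM with the inhibitor and 23.0 ± 5.10 CPM with vehicle (SD, n = 3 each). The log2 fold change was -0.996 ± 0.21 (SE), with a 95% interval from -1.48 to -0.51, and the edgeR adjusted p was 0.0593. Inppl1 ranked at position 365 of the 12806 genes by p. The gene spans 15598 bases of chromosome 7, from 101822632 to 101838229 on the minus strand (GRCm38, GENCODE M21). On the opposite strand it overlaps Phox2a at one end and the antisense gene Gm10602 at the other. Counts of neither were used here, and the library chemistry does not mark strand, so reads from such partners cannot be told apart from Inppl1 reads.

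Whether Inppl1 is called depends on the tool. DESeq2 put the same 6 libraries at a log2 fold change of -0.99 with an adjusted p of 0.000647, where 12.1% of genes with an adjusted p were called and 7.24% were called lower. The authors' deposited table gives a log2 fold change of -0.99 and an adjusted p of 0.000674 for Inppl1, and there 10.8% of genes with an adjusted p are past the same threshold, with 6.57% lower. In the authors' deposited table the other 5 genes have an adjusted p between 0.281 and 0.585. Without vehicle 1, the library with the highest value, edgeR gave Inppl1 a log2 fold change of -0.84 and an adjusted p of 0.031, with 7.99% of genes called and 4.89% called lower. Without any 1 of the other libraries the edgeR adjusted p lay between 0.0567 and 0.21. Of all genes, edgeR called 91 of 13016 without vehicle 2, and 0 without inhibitor 1, 3 or 5 or vehicle 3. Limma voom left Inppl1 at an adjusted p of 0.0769, with 0.664% of genes called and 0.429% called lower. With quality weights on libraries, limma voom put it at 0.00417, with 22.3% called and 11.6% called lower. DESeq2 without each library in turn, a check chosen after seeing the data, gave adjusted p from 1.94e-05 to 0.0312. The share of all genes called in these fits was not counted, so these values have no background beside them. Over 20 alternatives, these DESeq2 fits included, Inppl1 was called in 9, and its log2 fold change ran from -1.25 to -0.84. The -1.25 came from the edgeR fit with a replicate block, where the difference rests on libraries whose numbers occur in both groups. Every DESeq2 fit with a library left out called it. Of the other alternatives, only DESeq2 on all libraries, limma voom with quality weights and edgeR without vehicle 1 called it.

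**Figure D1:**
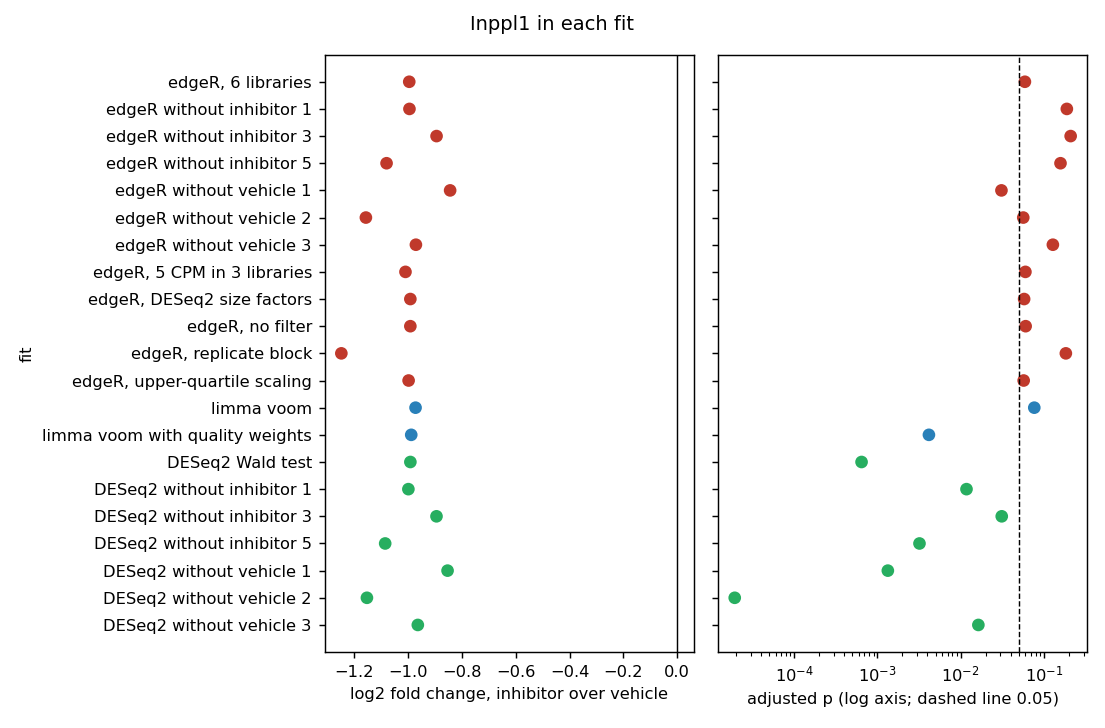
Log2 fold change of Inppl1, inhibitor over vehicle (left), and its adjusted p on a log axis (right), in edgeR (red), limma (blue) and DESeq2 (green) fits with all or all but 1 of the 6 libraries. The fold change stays between -1.25 and -0.84 while the adjusted p lies on both sides of the dashed line at 0.05. The -1.25 is from the replicate block fit, where the difference rests on libraries whose numbers occur in both groups.

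Markers of several cell types differed between the groups in which Inppl1 differed. The 10 macrophage markers summed to 409 to 668 CPM in inhibitor and 1655 to 5937 CPM in vehicle libraries. By edgeR 5 of these 10 were called lower, beside 1.19% of all tested genes. The 8 monocyte markers summed to 1541 to 2040 CPM in inhibitor and 2757 to 3248 CPM in vehicle libraries. The 8 stem and progenitor markers summed to 284 to 306 CPM in inhibitor and 159 to 201 CPM in vehicle libraries, and the 10 B lymphoid markers to 155 to 489 CPM in inhibitor and 47.6 to 113 CPM in vehicle libraries. The 10 neutrophil markers summed to 101580 to 122361 CPM in inhibitor and 39557 to 64155 CPM in vehicle libraries. Also called lower were 3 of 8 monocyte and 1 of 10 T and NK markers. Called higher were 2 of 8 stem and progenitor, 2 of 10 B lymphoid and 2 of 10 neutrophil markers, beside 0.633% of all tested genes. In the other lists edgeR called 0. Sums of the T and NK, erythroid, megakaryocyte, and stroma and endothelium lists overlapped between groups. As a score (mean of log2(CPM + 1) over the list), T and NK ran from 3.72 to 3.84 with the inhibitor and 3.99 to 4.49 with vehicle. The stroma and endothelium score ran from 3.46 to 4.10 with the inhibitor and 4.31 to 5.97 with vehicle. Neither score overlapped (exact permutation test, two-sided, p = 0.1 for each, the smallest possible). The erythroid and megakaryocyte scores overlapped. The 8 stroma and endothelium markers summed to 206 to 343 CPM in inhibitor and 277 to 686 CPM in vehicle libraries, with their highest sum in vehicle 1. The part of these cells in the value of Inppl1 was not tested. In bulk marrow, fewer cells of a type and less RNA per cell cannot be told apart.

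Inpp5d, the blood-cell SHIP gene, was measured with the most reads of the 6. It had 219, 198 and 193 CPM in inhibitors 1, 3 and 5, and 215, 226 and 258 CPM in vehicles 1, 2 and 3. Inhibitor 1 lay above vehicle 1, so the groups overlapped. The log2 fold change was -0.20 ± 0.13 (SE; edgeR adjusted p = 0.406), and as a ratio of inhibitor to vehicle the 95% interval ran from 0.711 to 1.07. Without vehicle 3 its log2 fold change was -0.11. Inpp5d spans chromosome 1 from 87620312 to 87720507 on the plus strand, with no annotated gene overlapping it.

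**Figure D2:**
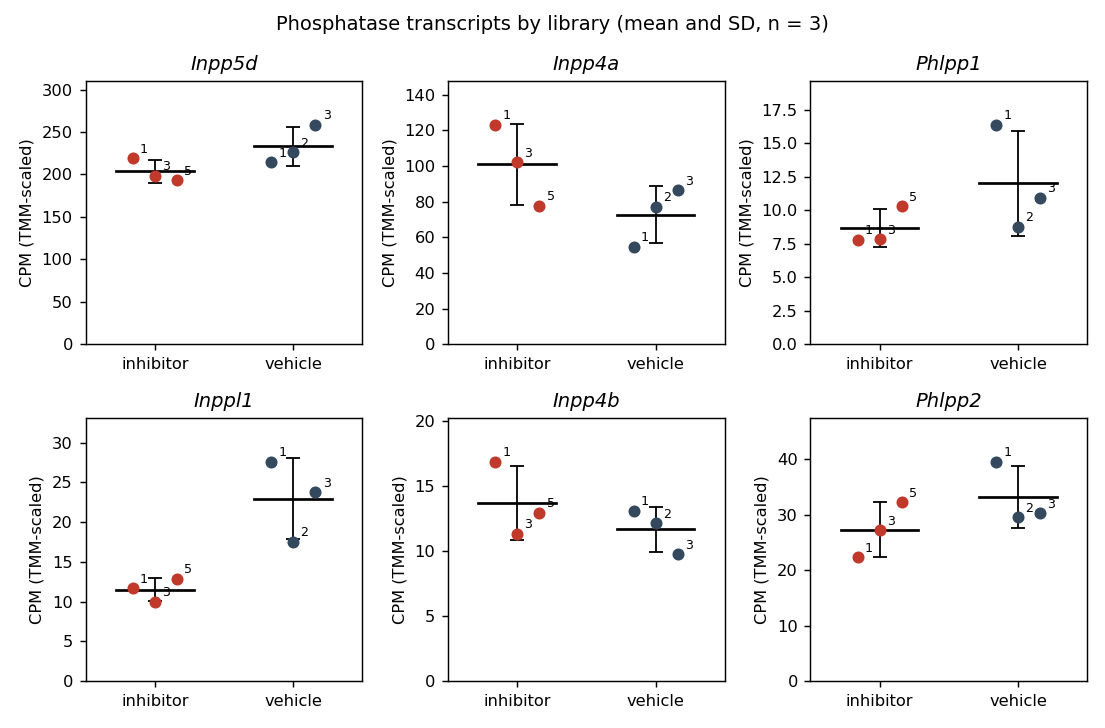
TMM-scaled CPM of the 6 phosphatase genes in each library (points, numbered by library), with the mean (line) and SD (bar) of inhibitor and vehicle groups (n = 3 each). Inppl1 is the gene whose groups do not overlap, at 9.97 to 12.9 CPM with the inhibitor and 17.5 to 27.6 CPM with vehicle. Groups did not overlap in 30.7% of all tested genes.

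The pair of SHIP genes was also compared inside each library, since a ratio of 2 genes does not depend on library scaling. Per base of gene length, Inpp5d exceeded Inppl1 by 19.4, 20.5 and 15.5 times in inhibitors 1, 3 and 5, and by 8.01, 13.3 and 11.2 times in vehicles 1, 2 and 3. The ratios of the groups did not overlap. This restates in large part the difference of Inppl1, since the log2 fold change of Inpp5d was only -0.20. On the log2 scale the ratio averaged 4.19 ± 0.21 with the inhibitor and 3.41 ± 0.37 with vehicle (SD, n = 3 each), a difference of 0.79 (exact permutation test, two-sided, p = 0.1, and 0.3 adjusted over 3 ratios). No smaller raw p than 0.1 can come from 3 against 3 libraries. Put as a share of both SHIP transcripts per length, Inppl1 made up 4.91%, 4.66% and 6.07% in inhibitors 1, 3 and 5, and 11.1%, 6.99% and 8.18% in vehicles 1, 2 and 3. The difference of the log2 ratio was 0.58 without vehicle 1.

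The genes for the lipid 4-phosphatases both had point estimates above 0, and neither passed. Inpp4a had 123, 102 and 77.8 CPM in inhibitors 1, 3 and 5, and 54.8, 77.1 and 86.3 CPM in vehicles 1, 2 and 3. The extremes were inhibitor 1 and vehicle 1, and inhibitor 5 lay among the vehicles. The log2 fold change was 0.47 ± 0.22 (SE; 95% interval -0.05 to 1.00; edgeR adjusted p = 0.268). It was 0.30 without vehicle 1 and 0.31 without inhibitor 1. The 10 neutrophil markers, which summed to 101580 to 122361 CPM in inhibitor and 39557 to 64155 CPM in vehicle libraries, were also highest in inhibitor 1 and lowest in vehicle 1. The sum of the stem and progenitor markers had the same extremes (306 CPM in inhibitor 1 and 159 CPM in vehicle 1). Sums of the macrophage, erythroid, and stroma and endothelium lists had the reverse, lowest in inhibitor 1 and highest in vehicle 1. The part of any of these cells in the Inpp4a value was not tested. Inpp4a lies on chromosome 1 from 37299865 to 37410736 (plus strand), with 4930439A04Rik and Gm37135 on the opposite strand inside it.

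Inpp4b, studied as a tumour suppressor in epithelial cancers and linked to outcome in human acute myeloid leukaemia, had low values. They were 16.9, 11.3 and 12.9 CPM in inhibitors 1, 3 and 5, and 13.1, 12.1 and 9.72 CPM in vehicles 1, 2 and 3. Inhibitor 1 alone lay above every vehicle. Its log2 fold change was 0.24 ± 0.21 (SE; edgeR adjusted p = 0.535) and 0.07 without inhibitor 1. The gene is spread over 785359 bases of chromosome 8, from 81342556 to 82127914 (plus strand), far more than any of the other 5. Inside it lie 4930579O11Rik and Gm17169 on the opposite strand and Gm17072 on its own strand, none of them analysed here. Within libraries, Inpp4a exceeded Inpp4b per length by 10.2, 12.6 and 8.40 times in inhibitors 1, 3 and 5, and by 5.85, 8.90 and 12.4 times in vehicles 1, 2 and 3. These ratios overlapped, and their difference of 0.25 on the log2 scale (exact permutation test, two-sided, p = 0.6, adjusted 0.6) was -0.03 without vehicle 1.

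The PHLPP genes both had point estimates below 0, and neither passed. Phlpp1 had 7.81, 7.85 and 10.3 CPM in inhibitors 1, 3 and 5, and 16.4, 8.76 and 10.9 CPM in vehicles 1, 2 and 3. Vehicle 1 stood above the other 5 libraries, which lay within 7.81 to 10.9 CPM. For Phlpp1 the log2 fold change was -0.47 ± 0.26 (SE; edgeR adjusted p = 0.335), and -0.19 without vehicle 1. Phlpp2 had 22.3, 27.2 and 32.3 CPM in inhibitors 1, 3 and 5, and 39.6, 29.5 and 30.3 CPM in vehicles 1, 2 and 3. Inhibitor 5 lay above vehicles 2 and 3, so the groups overlapped. For Phlpp2 the log2 fold change was -0.28 ± 0.19 (SE; edgeR adjusted p = 0.418), and -0.13 without vehicle 1 or -0.14 without inhibitor 1. Phlpp1 lies on chromosome 1 from 106171752 to 106394250 and Phlpp2 on chromosome 8 from 109868542 to 109944671, both on the plus strand, and each holds 1 short annotated gene on its own strand (Gm38235 in Phlpp1, Gm16349 in Phlpp2) that was not analysed here.

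Per length, Phlpp2 was the more abundant of the PHLPP pair in every library. The ratio of Phlpp1 to Phlpp2, per length, was 0.45, 0.371 and 0.411 in inhibitors 1, 3 and 5, and 0.532, 0.382 and 0.464 in vehicles 1, 2 and 3. The groups overlapped, with a difference of -0.15 on the log2 scale (exact permutation test, two-sided, p = 0.4, adjusted 0.6). Without vehicle 1 the difference was -0.04, and without vehicle 2 it was -0.28.

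**Figure D3:**
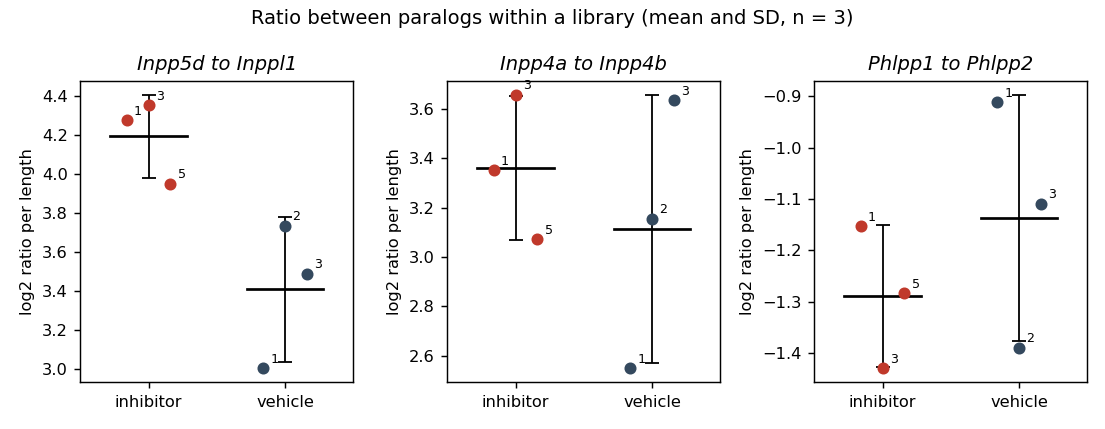
Log2 ratio of Inpp5d to Inppl1, Inpp4a to Inpp4b and Phlpp1 to Phlpp2 per gene length in each library (numbered points), with the mean and SD of inhibitor and vehicle groups (n = 3 each; the axes do not start at 0). The Inpp5d to Inppl1 ratio lies at 3.95 to 4.36 with the inhibitor and 3.00 to 3.73 with vehicle, and the ratios of the other families overlap.

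Set against each other per kilobase of gene length, the 6 genes kept a nearly fixed order. Inpp5d averaged 41.2 ± 2.77 CPM per kilobase in inhibitor and 47.2 ± 4.58 in vehicle libraries (SD, n = 3 each), a mean level above 85.9% of tested genes. Inpp4a came next at 14.4 ± 3.24 with the inhibitor and 10.4 ± 2.31 with vehicle. Both kept their place in 6 of 6 libraries, and Inpp5d exceeded Inpp4a by 2.52 to 5.55 times. Phlpp2, at 3.48 ± 0.63 CPM per kilobase with the inhibitor and 4.22 ± 0.71 with vehicle, and Inppl1, at 2.26 ± 0.29 with the inhibitor and 4.50 ± 1.00 with vehicle, did not differ beyond their spread over all libraries. Phlpp2 exceeded Inppl1 by 1.25, 1.77 and 1.63 times in inhibitors 1, 3 and 5, while the ratio was 0.931, 1.10 and 0.828 in vehicles 1, 2 and 3. Phlpp1, at 1.42 ± 0.23 with the inhibitor and 1.97 ± 0.64 with vehicle, and Inpp4b, at 1.40 ± 0.29 with the inhibitor and 1.19 ± 0.18 with vehicle, were the scarcest and overlapped. Gene lengths are those in the deposited table, and transcripts shorter than that length would be understated.

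**Figure D4:**
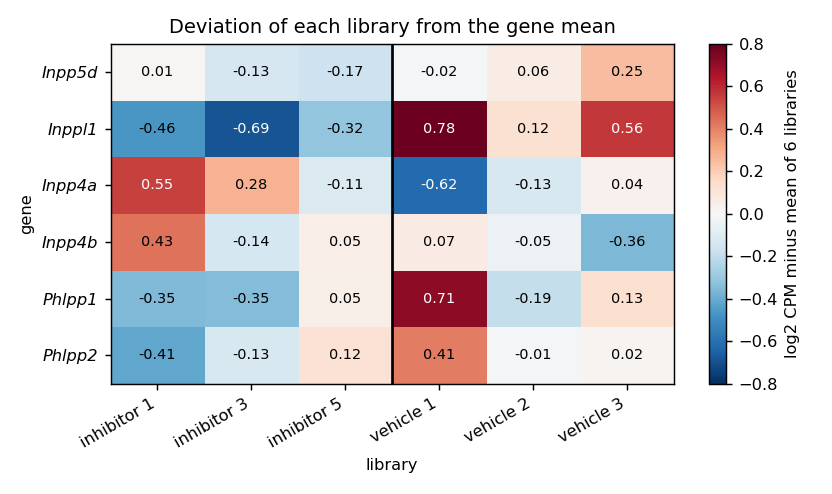
Log2 CPM of each gene in each library minus the mean of its 6 libraries, with inhibitor libraries left of the black line and vehicle libraries right of it. Vehicle 1 holds the highest values of Inppl1, Phlpp1 and Phlpp2 (0.78, 0.71 and 0.41) and the lowest of Inpp4a (-0.62).

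For each of the 6, other genes averaging 5 CPM or more were ranked by their Pearson correlation with it over the 6 libraries, which share groups and cell makeup. Inppl1 was most like Creld1 and Ppfia1 (r = 0.998 and 0.996), and Inpp5d most like Med12 and Cenpf (0.996 and 0.991). Inpp4a was most like Fam160b1 and Sec22c (both 0.998), and Inpp4b most like Aptx and Zfp451 (0.979 and 0.978). Phlpp1 was most like Tnc and Slc19a2 (0.994 and 0.993), and Phlpp2 most like Asb1 and Cd3eap (0.993 and 0.989). Of 9696 genes compared, the number with an r over 0.95 was 381 for Inpp4a, 134 for Inppl1, 106 for Phlpp2, 69 for Phlpp1, 44 for Inpp5d and 7 for Inpp4b.

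Around the 6 genes, the other phosphatases of phosphoinositides and inositol phosphates showed no call by edgeR among the 26 tested of 30 listed. With an unadjusted p below 0.05 there were 10 of the 26 (4 up with the inhibitor, 6 down), set beside 21.6% of all genes, and their median log2 fold change of -0.002 stood beside 0.001 for all genes. Sbf2, a myotubularin relative without catalytic activity, had 6.12, 7.18 and 6.26 CPM in inhibitors 1, 3 and 5, and 50.9, 16.1 and 20.2 CPM in vehicles 1, 2 and 3. The groups did not overlap, and vehicle 1 was more than 2 times above the other vehicles. Its log2 fold change was -2.16 (edgeR adjusted p = 0.0563), and -1.48 without vehicle 1 (adjusted p = 0.00419). Inpp5f, which removes phosphate from position 4 of phosphoinositides, had a log2 fold change of -0.62 and Mtmr10, another inactive myotubularin, one of -0.89 (edgeR adjusted p = 0.0685 and 0.0911). DESeq2, which called 12.1% of the genes with an adjusted p, called these 3 lower and Inpp5a, a phosphatase of soluble inositol phosphates, higher.

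Of 14 partners of the SHIP proteins and of the adaptors and receptors around them, 1 passed in edgeR, beside 1.83% of all tested genes, and 4 (1 up with the inhibitor, 3 down) had an unadjusted p under 0.05, beside 21.6%. Cd2ap, a scaffold known to bind SHIP1 in human dendritic cells, had 41.9, 39.9 and 42.5 CPM in inhibitors 1, 3 and 5, and 114, 73.9 and 76.7 CPM in vehicles 1, 2 and 3. No inhibitor library reached a vehicle library. It fell by 1.09 on the log2 scale (edgeR adjusted p = 0.042), and by 0.86 without vehicle 1 (adjusted p = 0.00514). The call was lost in limma voom (adjusted p = 0.0537) and without any 1 of the other 5 libraries (adjusted p from 0.0553 to 0.178). In those 5 fits edgeR called 91 of all genes without vehicle 2 and otherwise 0. The call was also lost in edgeR with a replicate block (adjusted p = 0.127). It held in edgeR with other scalings and filters (adjusted p from 0.038 to 0.0419) and in limma voom with quality weights (0.00084). DESeq2 called Cd2ap lower (adjusted p = 1.92e-05), 1 of 14, beside 12.1% of all genes. The adaptors Dok2 and Dok3, which bring inhibitory enzymes to receptors in blood cells, had log2 fold changes of -0.51 and 0.55 (edgeR adjusted p = 0.167 and 0.197), and -0.31 and 0.36 without vehicle 1.

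No gene passed among the 14 tested of 16 listed subunits and regulators of PP2A, the phosphatase that acts on AKT beside PHLPP, where 2 of 14 genes (1 above, 1 below) had an unadjusted p under 0.05, beside 21.6% of all tested genes, and DESeq2 called 0, beside 12.1%. The B56 subunit gene Ppp2r5b had a log2 fold change of -0.85, the catalytic Ppp2cb 0.30 and the regulatory Ppp2r2d 0.22, with edgeR adjusted p of 0.178, 0.226 and 0.302. Without vehicle 1 Ppp2r5b was at -0.43. By edgeR none passed among the 12 tested of 13 listed partners and substrates of PHLPP either, where 2 of 12 genes (1 above, 1 below) had an unadjusted p under 0.05, beside the same 21.6%. Usp46 and Usp12, deubiquitinases reported to stabilise PHLPP1 in human cells, had log2 fold changes of 0.56 and -0.45 (edgeR adjusted p = 0.104 for both), and their cofactor Wdr48 0.41, or 0.26 without vehicle 1. DESeq2 called Usp46 higher and Usp12 lower, 2 of 12, where it called 12.1% of all genes. Among the 18 tested of 19 listed proteins that bind PIP3 or its products or act just after it, none passed in edgeR, and 1 of 18 had an unadjusted p under 0.05, beside 21.6% of all genes. Plekha1, which binds the bisphosphate left by SHIP, had a log2 fold change of -0.39, and the kinase gene Tec had 0.67, with edgeR adjusted p of 0.126 and 0.237. Without vehicle 1 Tec was at 0.39. DESeq2 called Plekha1 lower, 1 of 18, beside the same 12.1%. The edgeR medians were 0.03 for PP2A, 0.14 for PHLPP partners, 0.02 for the binding proteins and -0.12 for SHIP partners on the log2 scale. Without vehicle 1 they were -0.01 for PP2A, 0.06 for PHLPP partners, -0.03 for the binding proteins, -0.08 for SHIP partners and -0.04 for the other lipid phosphatases, beside 0.02 for all genes, so the PP2A and binding protein medians changed sign.

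**Figure D5:**
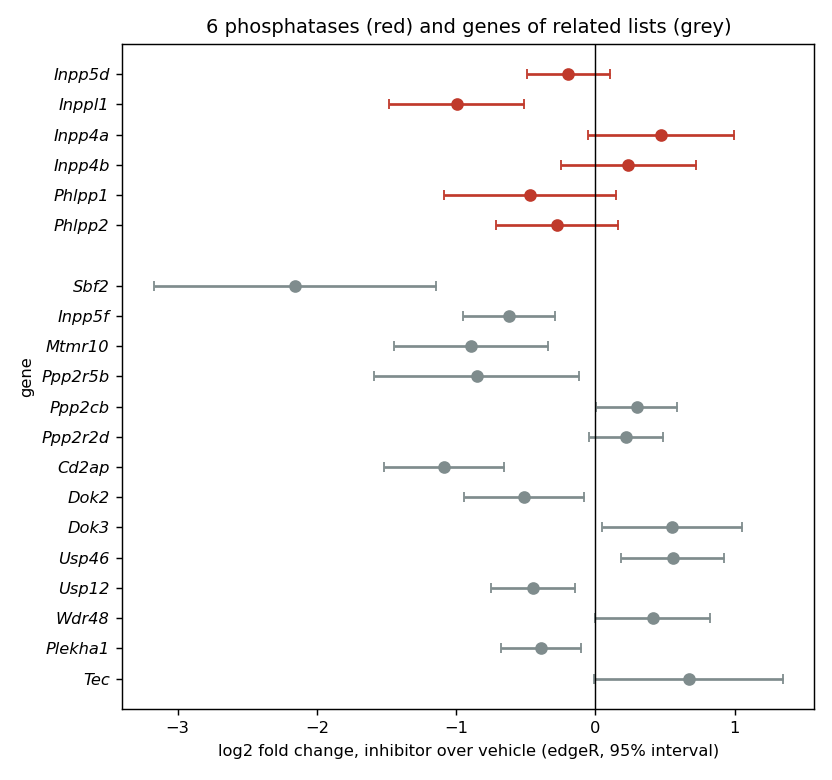
Log2 fold change, inhibitor over vehicle, with its 95% interval from edgeR, for the 6 phosphatase genes (red) and the genes of lowest p in each of 5 lists of related genes (grey), 3 a list but 2 for the binding proteins. The interval of Inppl1, from -1.48 to -0.51, leaves out 0, and those of the other 5 phosphatases include it.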

How the data were processed

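Column-purified total RNA went through SMART-Seq v4 cDNA synthesis and Nextera XT library construction per the labels' protocols, a chemistry that leaves strand unmarked. The submitters' processing notes name STAR, featureCounts and mm10, for which the sources used here give no versions. The authors deposited raw read counts and gene lengths in bases for 14992 genes. Beside these, their deposited table lists for every gene the fold (ratio) between groups, its log2, and p-values before and after adjustment, from a test that no source used here names. Empty lines were dropped.

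Libraries were grouped by the treatment label. Counts were tested over the whole table with edgeR 4.0.16 in R 4.3.3 (filterByExpr, 12806 genes tested and 2186 left out, all 6 members kept; TMM; quasi-likelihood F test on group; Benjamini-Hochberg). The SE is the log2 fold change divided by the square root of F. The biological coefficient of variation was 25.2%. Ratios add 0.5 counts, and list scores are means of log2(CPM + 1). Steps were tested on simulated counts. The closest libraries, vehicles 2 and 3, differed far beyond sampling noise (chi-square per degree of freedom 31.6). Alternatives used DESeq2 1.42.0, limma 3.58.1, other scalings and filters, a replicate block and each library left out. Named beside the members are the 3 genes of each list with the smallest p, any called gene, and the 2 genes most like each member; 1 gene that this rule names is not reported here. The members and lists were chosen with earlier results of these data known. Coordinates are from GENCODE M21 (GRCm38) and promoters from RefSeq.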

Additional observations from a re-analysis of the deposited data

How the results depend on the processing

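The 6 members kept the direction of their log2 fold change in all 120 values under 20 alternatives each. Of these, 9 passed the threshold, all for Inppl1, and 0 of 100 for the other 5 members. The 9 include every DESeq2 fit with 1 library left out, a check chosen after seeing the data. The number of members called was 0 by edgeR over all libraries and 1 (Inppl1) by DESeq2, by limma voom with quality weights and at an adjusted p under 0.10. With 1 library left out it ran from 0 to 1. Over all genes edgeR called 234, against 1554 by DESeq2, 85 by limma voom, 2857 with quality weights (where vehicle 1 had a weight of 0.161), 1056 at an adjusted p under 0.10, and 0 to 1034 with 1 library left out (91 without vehicle 2, 1034 without vehicle 1 and 0 without any other library, where edgeR gave 1832 to 2398 genes an unadjusted p under 0.05).

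The labels share the numbers 1 and 3 between groups without saying that they pair libraries, and deviations of same-numbered libraries correlated at -0.514 and -0.103 across genes. Only the numbers 1 and 3 occur in both groups. In the fit with a replicate block, the group difference therefore rests on the libraries with those numbers. The other libraries add nothing to it, and few degrees of freedom remain for the spread. With this block edgeR called 7 genes, 0 members and 0 SHIP partners, with Inppl1 at -1.25 on the log2 scale (edgeR adjusted p = 0.184). These values cannot be read as an effect of pairing over all libraries.

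In the lists, DESeq2 called 4 of 26 other phosphatases, 2 of 12 PHLPP partners and 1 of 18 binding proteins where edgeR called 0. Of all genes DESeq2 called 12.1% and edgeR 1.83%. Quality weights gave 10, 4 and 6 for these lists, 1 of 14 for PP2A and 3 of 14 for SHIP partners. With these weights 22.3% of all genes were called. Limma voom gave 0 SHIP partners, beside 0.664% of all genes. With 1 library left out, other phosphatases and binding proteins had 0 to 2 calls each and SHIP partners 0 to 1. All of these calls came without vehicle 1, where edgeR called 7.99% of all genes. The group difference of the Inpp4a to Inpp4b ratio ran from -0.03426 to 0.5077 on the log2 scale with 1 library left out, turning below 0 without vehicle 1. Score differences of the erythroid list ran from -0.6934 to 0.03007 and of the megakaryocyte list from -0.134 to 0.9572, turning without vehicle 1 and inhibitor 5. The cause of these shifts was not tested. With 3 libraries a group, an exact test cannot go below 0.1.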
